A study of Mus musculus with 10 samples.

Results

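Myosin light chains are the small subunits that sit on the neck of each myosin head, and 6 muscle isoforms of them are described here in left ventricle (LV) and skeletal muscle (SkM). The 6 genes were chosen by symbol, as Myl1, Myl2, Myl3, Myl4, Myl7 and Mylpf, and are 6 of the 23337 genes counted in these libraries. All 6 symbols were found.

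Each myosin head carries a regulatory light chain, which kinases can phosphorylate, and an essential light chain, which stiffens the lever arm. Muscles select their isoforms by fibre type: Myl2 (regulatory) and Myl3 (essential) serve the ventricle and slow skeletal fibres, Mylpf (regulatory) and Myl1 (essential) serve fast skeletal fibres, and Myl7 (regulatory) and Myl4 (essential) serve the atrium, with Myl4 also used in embryonic muscle. The isoform mix is therefore a common readout of chamber and fibre identity.

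The mice were C57BL/6/129SvEv hybrids aged 17 weeks, with no treatment named. E0del/+ mice were heterozygous for a deletion of E0, a putative enhancer in intron 1 of the titin gene Ttn, and WT mice carried no deletion. Poly(A) RNA of 5 mice, 2 of them WT and 3 E0del/+, gave 10 libraries, with LV and SkM sequenced from every animal. The labels give each mouse a batch that equals its replicate number, so that batches 1 and 2 hold a WT and an E0del/+ mouse and batch 3 holds an E0del/+ mouse alone, and they do not name the skeletal muscle that was taken.

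Ttn, the gene that holds the deleted element, was counted at 7959 and 9344 CPM (counts scaled to the gene counts of the library) in the WT LV libraries and at 7737, 5560 and 6597 CPM in the E0del/+ LV libraries. In SkM its values were 24205 and 15856 CPM in WT and 20092, 18854 and 13585 CPM in E0del/+. The genotypes did not overlap in LV, as for 15.4% of genes with at least 10 counts in every LV library, and overlapped in SkM. The higher WT LV value comes from replicate 2, a library that also held skeletal muscle RNA, and the other WT value is close to that of E0del/+ replicate 1. The E0 element is intronic, so a gene count does not check its loss directly.

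Between 11010021 and 17484873 counts were assigned to genes per library. At that depth 3 counts, taken as the limit that a count of 0 allows, correspond to 0.172 to 0.272 CPM, and these limits cover counting error only. The 6 light chain genes together took 0.575% to 0.815% of the counts of an LV library and 0.714% to 1.11% of the counts of a SkM library.

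The label of the WT LV replicate 2 library did not describe its content fully, and the library is set apart below. It held the 9 genes of a fast skeletal fibre list (Myh1, Myh4, Tnnt3, Tnni2, Tnnc2, Actn3, Atp2a1, Mybpc2 and Pvalb) at a summed 41244 CPM, with Myh4 the most abundant at 18473 CPM. The same list summed to 199, 214, 219 and 236 CPM in the other 4 LV libraries and to 165413 to 177867 CPM in SkM. All 6 genes of a ventricle list (Myh6, Tnnt2, Tnni3, Actc1, Nppb and Irx4) were detected in this library as in the other LV libraries, at a summed 54208 CPM against 67853 to 78874 CPM. The tissue fit leaves out its mouse and the LV genotype fit includes it, except where the text says otherwise.

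Sex is not in the labels. Xist was at 0.343 to 4.89 CPM in both tissues of WT replicate 2 and E0del/+ replicate 3 and at 278 to 806 CPM in the other 3 mice, and 4 Y-linked genes (Ddx3y, Eif2s3y, Kdm5d and Uty) summed to 158 to 222 CPM in those 2 mice and to 0.461 to 21.6 CPM in the other 3, the highest of these in WT SkM replicate 1.

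Myl2, the regulatory chain of the ventricle and of slow fibres, is at chr5:122100980-122106854 in mm10 (plus strand, 633 bp of exons). In LV it was at 2550.3 CPM in WT replicate 1 and at 2615, 3782 and 2707 CPM in E0del/+ replicates 1, 2 and 3. WT LV replicate 2, set apart, held 1735 CPM. In SkM of the same mice Myl2 was at 55.1 CPM in WT replicate 1, 10.9 CPM in WT replicate 2, and 60.3, 77.1 and 18.9 CPM in E0del/+. Every LV library was far above every SkM library, and in SkM the values of WT replicate 2 and E0del/+ replicate 3 stood below those of the other 3 mice. Within a mouse, LV exceeded SkM 43.4-fold, 46.3-fold and 49.1-fold in 3 of the 4 mice without WT replicate 2 and 143-fold in E0del/+ replicate 3, where the SkM value is low. In WT replicate 2 the fold was 159.7.

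Myl3, the essential chain of the ventricle and of slow fibres, is at chr9:110763681-110769794 (plus strand, 898 bp of exons). LV held 3172 CPM in WT replicate 1, 2354 CPM in WT replicate 2, and 3576, 4332 and 3878 CPM in E0del/+. SkM held 85.7 and 23.1 CPM in WT and 122.8, 145.7 and 37.2 CPM in E0del/+ replicates 1, 2 and 3. The order of the SkM libraries was that of Myl2, with the same 2 mice low. The fold of LV over SkM was 37.0 in WT replicate 1 and 29.1, 29.7 and 104 in the E0del/+ mice, and 102 in WT replicate 2.

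SkM was tested against LV in the 4 mice without WT replicate 2, with the mouse as a block (edgeR quasi-likelihood test, Benjamini-Hochberg adjustment over 13375 genes, threshold 0.05). In that fit 3991 genes (29.8%) were higher in SkM and 4211 (31.5%) were lower, so a call in either direction is common. With total counts in place of TMM factors the counts were 1698 higher and 7683 lower, so the near-even split depends on the scaling. Of the 6 light chain genes 5 passed the filter on low counts, 2 were called higher and 2 lower in SkM. Myl2 had a log2 fold change of -5.26 (SE 0.37, edgeR adjusted p 1.86e-05) and Myl3 one of -4.74 (SE 0.39, edgeR adjusted p 4.08e-05), each lower in SkM in 4 of 4 mice. In bulk tissue, fewer fibres that express a gene and less RNA per fibre cannot be told apart.

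Mylpf, the regulatory chain of fast fibres, is at chr7:127211608-127214287 (plus strand, 755 bp of exons). In SkM it was at 2777 and 3475 CPM in WT and at 2631, 2655 and 2700.0 CPM in E0del/+. LV held 2.61 CPM in WT replicate 1 and 2.67, 3.72 and 3.05 CPM in E0del/+, from 34 to 41 counts, whereas WT LV replicate 2 held 570.3 CPM. The 4 other LV libraries lay close together, and WT SkM replicate 2 was the highest of the SkM libraries. The fold of SkM over LV was between 713 and 1063 in the 4 mice, with a median of 935, and 6.09 in WT replicate 2. The fit without that mouse gave a log2 fold change of 10.46 (SE 0.24, edgeR adjusted p 2.48e-07), higher in SkM in 4 of 4 mice and at rank 12 of all genes by p.

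Myl1, the essential chain of fast fibres, is at chr1:66924296-66945056 (minus strand, 1110 bp of exons). Its long and short transcripts start at separate first exons, and the files sum both, so the alkali chains they encode could not be separated. SkM held 4757 and 7629 CPM in WT and 4323, 4544 and 5934 CPM in E0del/+. LV held 21.0 CPM in WT replicate 1, 1353 CPM in WT replicate 2, and 21.3, 26.7 and 27.6 CPM in E0del/+. The tissue fold was between 170 and 227 in the 4 mice (median 209), and 5.64 in WT replicate 2. The log2 fold change was 8.31 (SE 0.23, edgeR adjusted p 3.68e-07), higher in SkM in 4 of 4 mice. With WT replicate 2 in the fit it became 7.63 (edgeR adjusted p 0.000359) and that of Mylpf 9.65 (edgeR adjusted p 0.000641), and Myl2 and Myl3 also stayed called.

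The LV level of Myl1 stood out among fast genes. As a percentage of the SkM level of the same mouse, Mylpf in LV had a median of 0.107% (range 0.0941% to 0.140%, 4 mice), and 8 of the 9 genes of the fast fibre list had medians between 0.0945% and 0.136%. Myl1 had a median of 0.479% (range 0.441% to 0.588%), and in the list Mybpc2 alone, at 0.624%, was higher than the rest. Whether the near-common level of about 0.1% in these libraries comes from the tissue or from reads shared between libraries was not tested.

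Because Myl1 and Mylpf move together across tissues and Myl3 moves the other way, their promoters are shown, as the 250 bases before the RefSeq start (GRCm38.p6, the build of the files). The Myl1 window is chr1:66945057-66945306 on the minus strand, the Mylpf window chr7:127211358-127211607 and the Myl3 window chr9:110763428-110763677, both on the plus strand. Capitals mark matches, on either strand, of the E-box CANNTG, the MCAT element CATTCC, the TATA element TATAAA and the CArG box; the MEF2 motif was searched too. No matches overlapped.
Myl1: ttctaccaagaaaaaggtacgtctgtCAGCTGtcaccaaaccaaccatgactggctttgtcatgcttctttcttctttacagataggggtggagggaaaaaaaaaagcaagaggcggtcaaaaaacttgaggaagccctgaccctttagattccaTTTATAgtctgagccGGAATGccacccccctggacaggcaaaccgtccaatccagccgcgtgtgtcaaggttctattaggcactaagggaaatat
Mylpf: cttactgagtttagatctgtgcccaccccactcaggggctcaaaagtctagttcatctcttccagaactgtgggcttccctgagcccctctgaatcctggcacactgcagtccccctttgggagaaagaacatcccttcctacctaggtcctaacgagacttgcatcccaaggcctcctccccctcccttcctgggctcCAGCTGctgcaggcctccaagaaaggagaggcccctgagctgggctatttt
Myl3: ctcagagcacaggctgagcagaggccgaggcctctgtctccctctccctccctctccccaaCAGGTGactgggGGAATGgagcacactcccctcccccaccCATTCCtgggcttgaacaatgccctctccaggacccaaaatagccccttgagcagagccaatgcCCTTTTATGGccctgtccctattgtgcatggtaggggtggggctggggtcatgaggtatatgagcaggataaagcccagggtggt
An E-box match was in each of the 3 windows, and no other motif was in all of them. Myl1 holds an E-box match at positions -224 to -219 from the start, TATAAA on the minus strand at -95 to -90, and CATTCC on the minus strand at -80 to -75. Mylpf holds an E-box match alone, at -51 to -46, with the same 6 letters as that of Myl1. Myl3 holds a CArG match at -85 to -76, an E-box match at -189 to -184 and CATTCC at -177 to -172 (minus strand) and -149 to -144 (plus strand). A CArG match was also in the window of Myl7, at -61 to -52, and no MEF2 match was in any window searched for the 6 genes. For Myl2 these windows leave out the bases next to its start in the files, so its proximal promoter was not searched. For Myl1 the window precedes a single start, and the other first exon was not searched. Among 32817 windows of the same length, 66.2% held CANNTG, 12.6% CATTCC, 12.4% TATAAA, 1.47% a CArG box and 2.92% a MEF2 motif. The windows listed for Myl2 lie 7791 and 8256 bp from the start of the gene in the files and are not shown.

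Myl7, the atrial regulatory chain, is at chr11:5896637-5898782 (minus strand, 590 bp of exons) and was near the limit of detection. LV held 0.614 and 1.26 CPM in WT (8 and 14 counts) and 2.73, 3.00 and 1.22 CPM in E0del/+ (42, 33 and 14 counts). SkM held 0 and 0.629 CPM in WT and 0.308, 0.666 and 0.0704 CPM in E0del/+, from 0 to 11 counts. Low counts, in the tissue fit also that of WT LV replicate 1, kept Myl7 out of the tissue fit and of the SkM genotype fit. LV exceeded SkM 8.89-fold in E0del/+ replicate 1, 4.50-fold in E0del/+ replicate 2 and 2.00-fold in WT replicate 2, and at least 2.85-fold in WT replicate 1, taking 3 counts in its SkM library as the limit. E0del/+ replicate 3 had 1 count in SkM, and no fold is given for it.

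Myl4, the atrial and embryonic essential chain, is at chr11:104550663-104587219 (plus strand, 883 bp of exons). An antisense transcript annotated in GENCODE M21, Gm22000, shares 3 bp with its exons, and the kit marks no strand, so reads on those bases cannot be assigned. Myl4 was at 1.92 and 2.79 CPM in WT LV and at 6.44, 7.27 and 2.44 CPM in E0del/+ LV. SkM held 2.66 and 4.23 CPM in WT and 4.86, 4.26 and 2.67 CPM in E0del/+. The tissues overlapped, and the fold of LV over SkM within the 4 mice ran from 0.721 to 1.70. The tissue fit gave a log2 fold change of 0.48 (SE 0.25, edgeR adjusted p 0.130), which became -0.17 with total counts in place of TMM factors; that scaling moved the median of all genes from -0.02 to -0.67, so relative to the median gene Myl4 lay above 0 in both. With WT replicate 2 in the fit it was 0.65 (edgeR adjusted p 0.0527). In CPM, which leaves out the TMM factors of the fit, SkM was above LV in 3 of 5 mice. That count is therefore not on the scale of the fit.

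**Figure D1:**
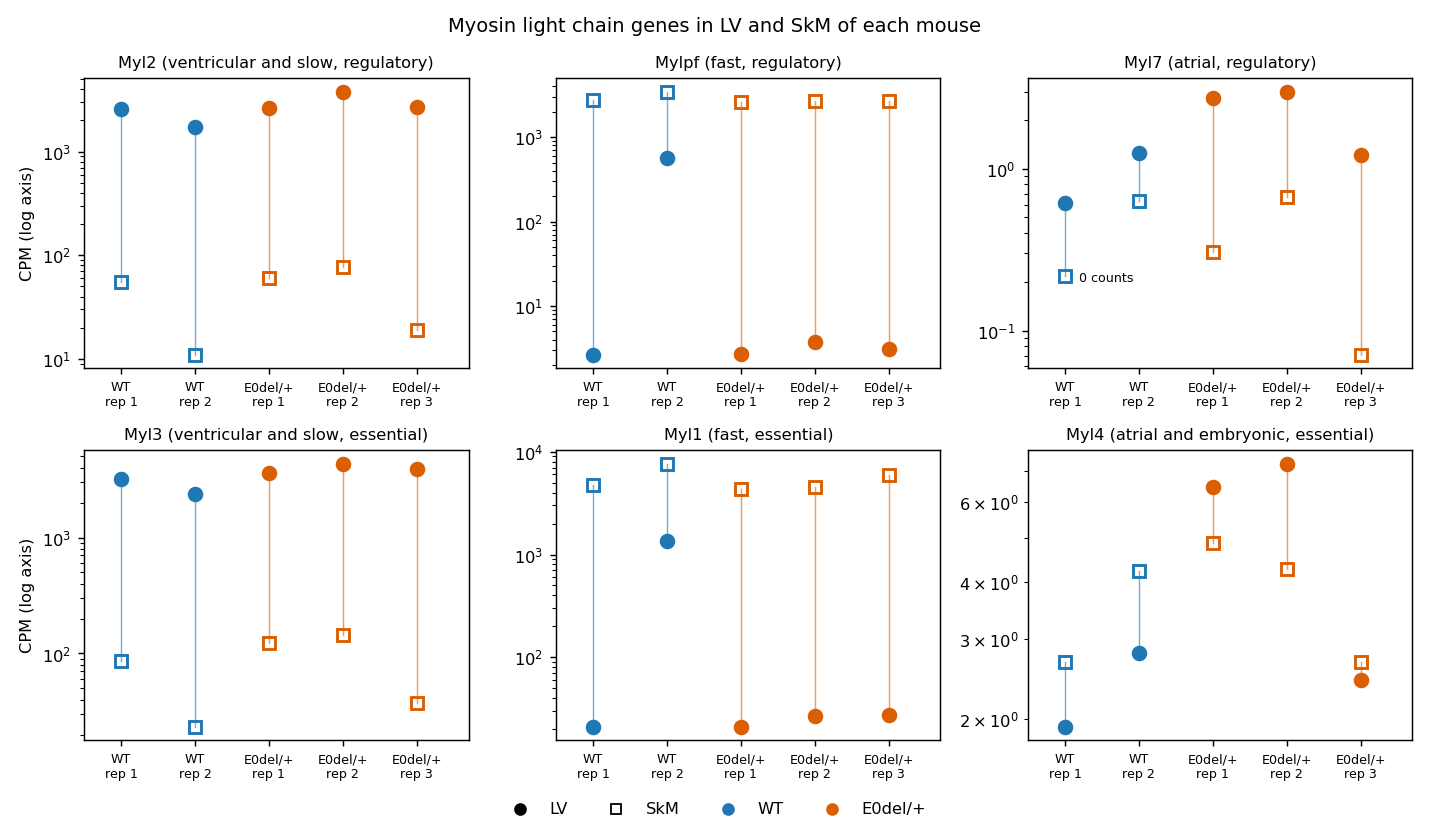
CPM (log axis) of the 6 light chain genes in LV (filled circles) and SkM (open squares) of each mouse, joined by a line; blue is WT and orange E0del/+, and the library with 0 counts is drawn at 3 counts. Myl2 and Myl3 are high in LV, Mylpf and Myl1 in SkM, WT LV replicate 2 holds 570.3 CPM of Mylpf and 1353 CPM of Myl1, and Myl4 and Myl7 stay below 8 CPM.

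Levels were next compared between isoforms per kb of exon, as shares of the summed CPM per kb of the 3 regulatory and of the 3 essential genes. In the 4 LV libraries without WT replicate 2, Myl2 made 99.8% to 99.9% of the regulatory sum and Myl3 99.3% to 99.4% of the essential sum. In WT LV replicate 2 the shares were 78.3% for Myl2 and 21.6% for Mylpf, and 68.2% for Myl3 and 31.7% for Myl1. In SkM the fast isoforms took nearly all of both sums: Mylpf made 96.6% to 99.6% of the regulatory sum and Myl1 96.1% to 99.6% of the essential sum. The atrial isoforms made at most 0.112% (Myl7) and 0.182% (Myl4) of their sums in LV. By level per kb in the 4 LV libraries without WT replicate 2, Myl2 (mean 4602, SD 920 CPM per kb) and Myl3 (mean 4164, SD 545) were highest, and within a library Myl3 was 0.807 to 1.01 times Myl2. Myl1 followed, and Myl4 (mean 5.12, SD 3.09), Mylpf (mean 3.99, SD 0.678) and Myl7 (mean 3.21, SD 1.96) were lowest. Myl4 was above Myl7 in 4 of 4 of these libraries, and the place of Mylpf among them changed from library to library. In the 5 SkM libraries the order was Myl1 (mean 4898, SD 1238), Mylpf (mean 3771, SD 471), Myl3 (mean 92.3, SD 58.9), Myl2 (mean 70.2, SD 44.7), Myl4 (mean 4.23, SD 1.14) and Myl7 (mean 0.567, SD 0.522). Within a library Myl1 was 1.12 to 1.49 times Mylpf and Myl3 was 1.10 to 1.499 times Myl2, above 1 in 5 of 5 for both pairs.

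**Figure D2:**
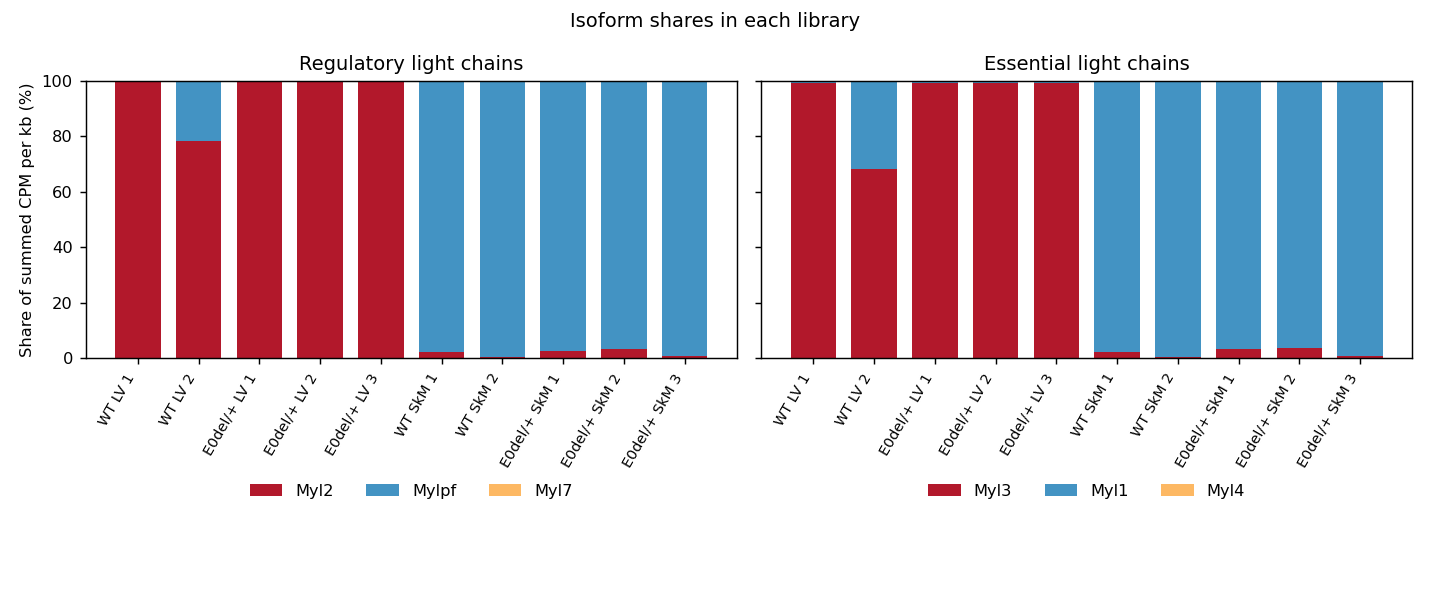
Share (%) of each isoform in the summed CPM per kb of the regulatory genes (left) and of the essential genes (right) in each library, as stacked bars. The ventricular isoforms fill the LV bars except in WT LV replicate 2, where the fast isoforms take 21.6% and 31.7%, and the atrial shares, at most 0.182%, are too small to see.

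Each head binds both chains, and the summed essential level was between 0.811 and 1.49 times the summed regulatory level. The ratio of the essential to the regulatory sum per kb was 0.881 in WT LV replicate 1, 0.969, 0.811 and 1.01 in E0del/+ LV, and 1.10 in WT LV replicate 2. In SkM it was 1.16 and 1.49 in WT and 1.13, 1.17 and 1.49 in E0del/+. SkM was above LV in 4 of 4 mice without WT replicate 2, by 0.159 to 0.480 (exact permutation of signs, p 0.125 on both sides, and 4 mice cannot give less). The SkM libraries of WT replicate 2 and E0del/+ replicate 3 stood apart at 1.49, through Myl1, whose ratio to Mylpf per kb was 1.49 in both against 1.12 to 1.17 in the other 3. The Myl1 to Mylpf ratio was 1.61 in WT LV replicate 2 and 4.88 to 6.14 in the other LV libraries.

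Low Myl2 and Myl3 in these 2 SkM libraries went with low levels of other slow fibre genes, and of some genes outside that list. Myh1 was at 1707 and 3240 CPM in them against 5051 to 6774 CPM, and Myh2 at 528 and 889.8 CPM against 1009 to 2060 CPM. The ventricle list summed to 199 and 148 CPM in them, against 1266 to 2142 CPM in the other SkM libraries. The share of Myl2 in the regulatory sum was 2.31% and 0.371% in WT SkM and 2.66%, 3.35% and 0.829% in E0del/+ SkM, and that of Myl3 in the essential sum was 2.18% and 0.373% in WT and 3.39%, 3.81% and 0.768% in E0del/+. A slow fibre list of 8 genes (Myh7, Tnnt1, Tnni1, Tnnc1, Atp2a2, Tpm3, Myh7b and Casq2), of which the ventricle also expresses several, summed to 1644 and 206 CPM in WT and to 2347, 2951 and 409 CPM in E0del/+. Its most abundant gene was Myh7, the slow heavy chain, at 824.1 and 73.8 CPM in WT and 1193, 1548 and 159.7 CPM in E0del/+, except in WT SkM replicate 2, where it was Atp2a2 at 75.7 CPM. None of the 8 was at 0 in a SkM library, nor in an LV library, so their detection alone does not show slow fibres. Myh7 made 0.986% and 0.0930% of the sarcomeric heavy chain sum per kb in WT and 1.49%, 1.78% and 0.188% in E0del/+.

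The slow light chains did not keep a fixed ratio to Myh7. In SkM, Myl3 per kb was 0.635 to 0.701 times Myh7 in 3 libraries and 2.11 and 1.57 times in WT replicate 2 and E0del/+ replicate 3. In LV, where Myh6 is the main heavy chain, Myl3 was 12.7 to 15.04 times Myh7. The 2 mice with low slow genes in SkM were those with low Xist, 1 of each genotype. The parts of sex, of the muscle sampled and of batch in these levels were not tested.

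**Figure D3:**
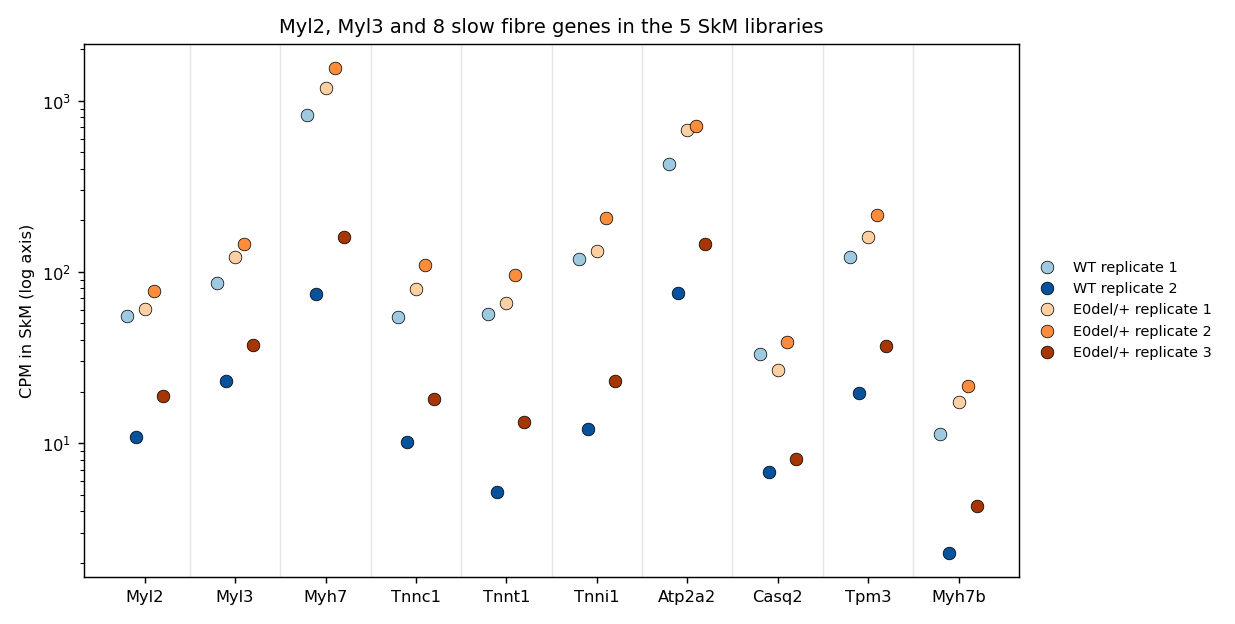
CPM (log axis) of Myl2, Myl3 and the 8 genes of the slow fibre list in the 5 SkM libraries, 1 point per library. WT replicate 2 (dark blue) and E0del/+ replicate 3 (brown) lie below the other 3 libraries for each of the 10 genes, as in Myl3 with 23.1 and 37.2 CPM against 85.7 to 145.7 CPM.

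E0del/+ was compared with WT within LV over the 5 libraries. The edgeR test called 0 of 13420 genes (0%) at an adjusted p under 0.05, and 564 (4.2%) had an unadjusted p under 0.05; DESeq2 also called 0. All 6 light chain genes were tested, and 0 were called. Genes whose CPM did not overlap between genotypes were 1921 of 12511 (15.4%) with at least 10 counts in every LV library. Of the 5 light chain genes with that depth 2, Myl2 and Myl3, did not overlap, both higher in E0del/+.

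The ventricular chains were not called, although their log2 fold changes lay above those of most genes. Myl2 had a mean of 2143 CPM (SD 577, n = 2) in WT and 3034 CPM (SD 649, n = 3) in E0del/+, a log2 fold change of 0.44 (SE 0.24, 95% interval -0.12 to 0.99, edgeR adjusted p 0.997). Myl3 had means of 2763 CPM (SD 578, n = 2) and 3928 CPM (SD 380, n = 3), a log2 fold change of 0.45 (SE 0.22, interval -0.06 to 0.96, edgeR adjusted p 0.997). Part of the low WT mean comes from WT LV replicate 2: without it the values fell to 0.24 and 0.31 (edgeR adjusted p 1.00 for both). Within batch 1 the E0del/+ level was 1.03 times the WT level for Myl2 and 1.13 times for Myl3, and within batch 2, which holds WT LV replicate 2, 2.18 and 1.84 times.

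The fast chains changed sign with that library. With all 5 LV libraries Myl1 had a log2 fold change of -4.90 (interval -7.72 to -2.08, edgeR adjusted p 0.997) and Mylpf one of -6.65 (interval -10.24 to -3.06, edgeR adjusted p 0.997), since the lone high value is WT. Without WT LV replicate 2 they were 0.27 and 0.26 (edgeR adjusted p 1.00 for both). With WT LV replicate 2 as the only WT library, 578 genes were called, among them Myl1 and Mylpf, at log2 fold changes of -5.88 (edgeR adjusted p 3.41e-07) and -7.64 (edgeR adjusted p 5.67e-08); over the other alternatives for these 2 genes 0 calls were made. Within batch 1 the E0del/+ level was 1.02 times the WT level for both genes.

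The atrial chains were higher in E0del/+ LV within each batch that has both genotypes. For Myl4 the E0del/+ level was 3.36 times the WT level in batch 1 and 2.60 times in batch 2, and for Myl7 4.45 and 2.38 times. The WT library of batch 2 is WT LV replicate 2, where the ventricle list had a median of 69.9% of the level in the other LV libraries. In batch 1 the WT level of Myl7 rests on 8 counts. E0del/+ replicate 3, whose batch holds no WT mouse, lay within the WT range for both genes, so the genotypes overlapped. Over the 5 libraries the log2 fold change was 1.10 for Myl4 (SE 0.47, interval 0.03 to 2.17, unadjusted p 0.0454, edgeR adjusted p 0.997) and 1.23 for Myl7 (SE 0.55, interval -0.04 to 2.49, unadjusted p 0.0563, edgeR adjusted p 0.997). Without WT LV replicate 2 the values were 1.47 and 1.89, again with an edgeR adjusted p of 1.00. Without WT LV replicate 1 they were 0.80 (edgeR adjusted p 0.660) and 0.74 (edgeR adjusted p 0.753). The share of Myl7 in the regulatory sum was 0.0434% (SD 0.0249, n = 2) in WT LV and 0.0817% (SD 0.0319, n = 3) in E0del/+ LV, and that of Myl4 in the essential sum 0.0717% (SD 0.0148) and 0.138% (SD 0.0650), each with a two-sided exact permutation p of 0.3 (adjusted over 4 shares 0.5), where 2 against 3 libraries cannot give a p under 0.1.

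An atrium list did not follow Myl4 and Myl7 library by library. Its 6 genes (Nppa, Sln, Bmp10, Gja5, Tbx5 and Dkk3), some of which the ventricle also expresses, summed to 299 and 250 CPM in WT LV and to 291, 654 and 493 CPM in E0del/+ LV. Nppa was the most abundant in each, at 219.7 and 196.7 CPM in WT and 221.5, 582.4 and 432.9 CPM in E0del/+. Bmp10, an atrial marker, was at 0 in 3 of the LV libraries and at no more than 0.0908 CPM in the others. The sum is mostly Nppa, which had a log2 fold change of 0.90 (edgeR adjusted p 0.997, higher than both WT libraries in 3 of 3 E0del/+ libraries), and the other 4 genes tested were between -0.25 and -0.02, so that the list median was -0.03 beside -0.01 over all genes. E0del/+ replicate 3 had the second highest sum and low Myl4 and Myl7, and E0del/+ replicate 1 the reverse; the part of atrial tissue in the changes was not tested.

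In SkM the edgeR test called 0 of 13154 genes (0%), with 114 (0.867%) at an unadjusted p under 0.05, and DESeq2 called 0. Of the 6 light chain genes 5 were tested and 0 were called. Genes that did not overlap between genotypes were 1396 of 11480 (12.2%), and of the 5 light chain genes with at least 10 counts in every SkM library 1, Mylpf, did not overlap, lower in E0del/+. Its means were 3126 CPM (SD 494, n = 2) in WT and 2662 CPM (SD 35.3, n = 3) in E0del/+, a log2 fold change of -0.24 (SE 0.21, interval -0.78 to 0.29, edgeR adjusted p 1.00). Without WT SkM replicate 2 it was 0.0764 (edgeR adjusted p 1.00). In CPM the E0del/+ level of Mylpf was 0.947 times the WT level within batch 1 and 0.764 times within batch 2.

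For the other chains in SkM the spread within a genotype exceeded the difference. Myl1 had a log2 fold change of -0.35 (interval -1.16 to 0.46), which became 0.19 without WT SkM replicate 2. Myl2 had one of 0.75 (interval -1.21 to 2.72) and Myl3 one of 0.98 (interval -0.80 to 2.77), falling to 0.06 and 0.39 without that library and rising to 2.14 (edgeR adjusted p 0.417) and 2.02 (edgeR adjusted p 0.419) without WT SkM replicate 1. Myl4 had one of 0.16 (interval -0.91 to 1.23), which became -0.23 without WT SkM replicate 1 (edgeR adjusted p 0.803). With all 5 libraries, and without WT SkM replicate 2, the edgeR adjusted p was 1.00 for each of the 4 genes. Within batch 1 the E0del/+ level was 1.10 times the WT level for Myl2 and 1.43 times for Myl3. Within batch 2, where WT replicate 2 has the lowest slow levels, it was 7.09 and 6.31 times. With the batch as a block the log2 fold change was 1.45 for Myl2 (interval 0.08 to 2.82) and 1.58 for Myl3 (interval 0.49 to 2.66). Neither gene was called with that block (edgeR adjusted p 0.999 for both). The share of Myl2 differed by 0.938 percentage points (two-sided exact permutation p 0.5) and that of Myl3 by 1.38 points (exact permutation p 0.4), each higher on average in E0del/+. Without WT SkM replicate 2 the differences were -0.0317 points for Myl2 and 0.478 points for Myl3.

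**Figure D4:**
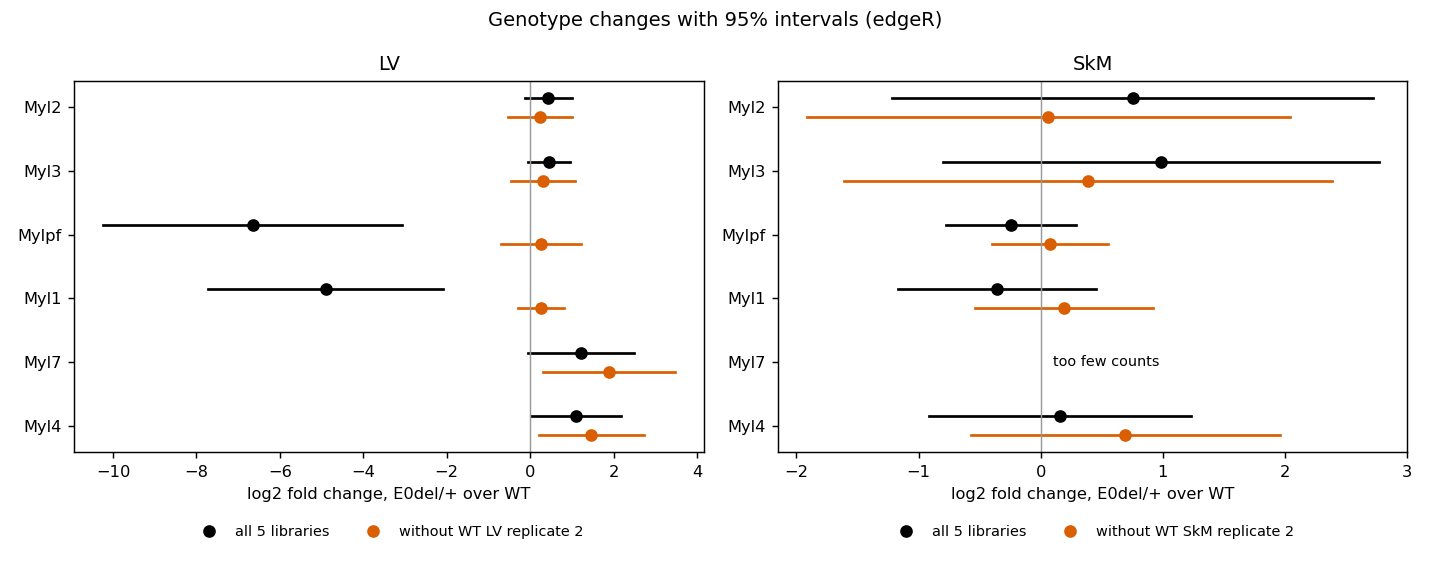
Log2 fold change of E0del/+ over WT for each light chain gene in LV (left) and SkM (right) with its 95% interval from the edgeR fit, for all 5 libraries (black) and without WT replicate 2 (orange); the x axes differ. Myl1 and Mylpf in LV move from -4.90 and -6.65 to 0.27 and 0.26, and Myl7 had too few counts in SkM.

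Whether the genotype difference itself differed between tissues was tested as an interaction over the 10 libraries with the mouse as a block. The edgeR test called 0 of 14327 genes (0%), with 238 at an unadjusted p under 0.05, and DESeq2 called 0. The log2 interaction (SkM minus LV) was 2.50 for Myl1, 3.61 for Mylpf, 0.40 for Myl2, 0.51 for Myl3, -0.86 for Myl4 and -0.83 for Myl7, each with an edgeR adjusted p of 1. Without the mouse block it was 4.50 for Myl1 and 6.36 for Mylpf (edgeR adjusted p 1.00 for both), nearer to the difference between the separate SkM and LV fits, so the size depends on the block. Without WT replicate 2 it was -0.00292 for Myl1, -0.10 for Mylpf, -0.30 for Myl2, -0.0378 for Myl3 and 3.64 for Myl7, the last from a WT mouse with 0 counts in SkM. Without WT replicate 1, which leaves WT replicate 2 alone, 155 genes were called, and Myl1 and Mylpf were at 5.08 and 7.09 (edgeR adjusted p 0.0102 and 0.00275).

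The fast light chains of WT LV replicate 2 were placed between LV and SkM, on a scale where 0 is the mean of the other 4 LV libraries and 100 a SkM library, for each of the 5 SkM libraries in turn. Mylpf lay at 16.3% to 21.6% of the way and Myl1 at 17.5% to 30.9%. The 9 genes of the fast list had medians of 21.0% to 26.0%, with single genes from 11.2% to 44.6%, both ends Myh1. Against SkM of the same mouse, Myl1 (17.5%) and Mylpf (16.3%) were close to Tnni2 (15.7%) and Tnnc2 (16.8%), and below Myh4 (24.1%) and Atp2a1 (24.3%).

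The ventricular chains of this library lay further along the same scale. Myl2 was at 40.6% to 41.6% of the way to SkM and Myl3 at 37.3% to 38.5%, that is at 59.5% and 63.0% of the mean of the other LV libraries. In the ventricle list the level was 45.2% to 74.6% of that mean, with a median of 69.9%, lowest for Nppb and highest for Myh6. A developing muscle list (Myh3, Myh8, Myog, Myod1 and Chrng) summed to 9.36 CPM, led by Myod1 at 6.57 CPM, against at most 0.614 CPM in the other LV libraries, and an adipocyte list (Adipoq, Plin1, Cidec, Fabp4 and Retn) to 218 CPM, led by Fabp4 at 105 CPM, against 119 to 250 CPM. Fabp4 made most of that sum in the other LV libraries but not in WT LV replicate 2. In WT LV replicate 2 the other 4 genes were above every other LV library and above SkM of the same mouse. Plin1 was at 45.9 CPM, against 0.436 to 3.19 CPM in the other LV libraries and 0.858 CPM in that SkM library. Adipoq was at 23.8 CPM, against at most 1.89 CPM and 0.686 CPM. How skeletal muscle RNA came into the library was not tested.

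**Figure D5:**
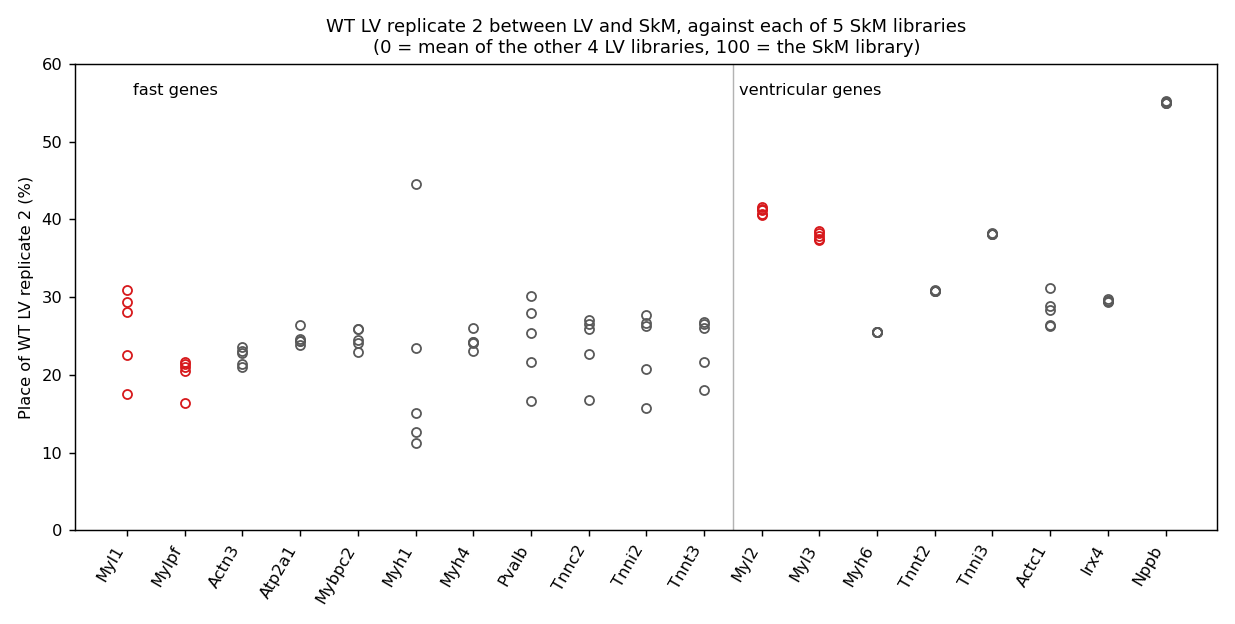
Place of WT LV replicate 2 (%) between the mean of the other 4 LV libraries (0) and each of the 5 SkM libraries (100) for light chain genes (red) and for genes of the fast and ventricle lists (grey), 1 point per SkM library. Fast genes gather between 11.2% and 44.6%, Mylpf at 16.3% to 21.6%, and Myl2 and Myl3 lie near 40.6% and 37.3%.

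Other light chains, the kinases and phosphatase that act on the regulatory chain, and the heavy chains that both chains bind were taken as lists. Of the 6 other light chains (Myl6, Myl6b, Myl9, Myl10, Myl12a and Myl12b) 5 were tested between tissues, 1 was higher in SkM (Myl6b, log2 fold change 2.50) and 2 were lower (Myl12a, -1.58, and Myl12b, -1.01), beside 29.8% and 31.5% of all genes, with a list median of -0.33 beside -0.02 over all genes. Myl12a led this list in each library, at 207 to 340 CPM in LV and 53.5 to 84.5 CPM in SkM. A smooth muscle list (Acta2, Myh11, Tagln and Cnn1) had 1 of 4 genes called, lower in SkM (Acta2, -1.42) as 31.5% of all genes were, and of a blood list of 5 genes Alas2 alone was tested and not called, since Hbb-bs and Hbb-bt are not in the files and Hba-a1 and Hba-a2 were at 0 in every library.

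Of the 8 enzyme genes (Mylk, Mylk2, Mylk3, Mylk4, Ppp1cb, Ppp1r12a, Ppp1r12b and Ppp1r12c), all tested, 3 were higher and 4 lower in SkM, beside 29.8% and 31.5% of all genes, with a median of 0.04 beside -0.02. Mylk2, the skeletal muscle kinase, was at 0.911 to 2.45 CPM in 4 LV libraries, 310.5 CPM in WT LV replicate 2 and 976 to 1820 CPM in SkM (log2 fold change 10.15, edgeR adjusted p 5.13e-07, higher in 4 of 4 mice). Mylk3, the cardiac kinase, was at 550 to 813 CPM in LV and 0.686 to 2.95 CPM in SkM (-8.51, edgeR adjusted p 2.76e-06, lower in 4 of 4 mice). Of 10 heavy chain and chaperone genes (Myh1, Myh2, Myh3, Myh4, Myh6, Myh7, Myh7b, Myh8, Unc45b and Smyd1) 7 were higher and 2 lower in SkM, with a median of 3.28. Myh6 led in LV (37356 to 54803 CPM) and Myh4 in SkM (70877 to 80026 CPM).

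Neither genotype comparison called a gene of these lists. In LV, with WT replicate 2 in the fit, the list medians were -0.12 for the other light chains, -0.15 for the enzymes and -0.13 for the heavy chains and chaperones, beside -0.01 over all genes. In SkM they were 0.14, -0.04 and 0.36, beside -0.01. Among the marker lists in LV the median was 0.23 for ventricle (6 of 6 genes above 0), -6.85 for fast and -3.39 for adipocyte. The slow, atrium and smooth muscle medians in LV were 0.03, -0.03 and -0.33. In SkM the median was 1.09 for slow (8 of 8 genes above 0), 0.93 for ventricle and 0.75 for atrium. There the fast, developing muscle, smooth muscle and adipocyte medians were -0.03, -0.46, 0.22 and 0.40. No gene of these marker lists was called. Between tissues, where 29.8% of all genes were higher and 31.5% lower in SkM, the ventricle list had 6 of 6 genes lower in SkM, the fast list 9 of 9 higher, the slow list 3 higher and 4 lower of 8, the atrium list 1 higher and 3 lower of 5 tested, the developing muscle list 4 of 4 tested higher and the adipocyte list 4 of 5 higher.

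The genes most like each light chain were those with the smallest root mean square difference in log2(CPM + 0.5), centred on the gene mean, over the 9 libraries without WT LV replicate 2 and 8612 genes. For Mylpf they were Myoz1 (0.16), Tnnt3 (0.17) and Tnnc2 (0.18), and for Myl1 Nctc1, Tbx15 and Mstn (0.26 each). With means of 0.241 and 0.598 CPM in LV, Nctc1 and Mstn depend on the added 0.5, and so does Myl7, at a mean of 1.03 CPM, so the order of the Myl1 genes is uncertain and no gene is named for Myl7. Myl2 and Myl3 named each other (0.30), and both had Myh7b, at 0.29 and 0.15, and Atp2a2, at 0.43 and 0.32. For Myl4 the nearest were Rps21 (0.38), Chchd1 (0.38) and 6430548M08Rik (0.40). Myl4 had a mean of only 4.09 CPM, so these names are uncertain too. Myl3 thus lay nearer to Myh7b than to Myl2 on this measure.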

How the data were processed

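Bulk poly(A) RNA-Seq of 10 libraries was analysed by group, mouse and batch from the labels. The authors deposited raw counts and RPKM per gene with exon coordinates; the submitters' processing notes name STAR, DESeq2 and mm10, and the counter, annotation and versions are not given in the sources used here. The deposited RPKM equal counts per kb scaled to the library total, within 4.73e-11. CPM, shares per kb and promoter matches were computed from the counts, the deposited exon lengths and RefSeq windows.

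Tests used R 4.3.3 and edgeR 4.0.16 with filterByExpr (minimum count 10, minimum total 15), TMM factors, the quasi-likelihood test and Benjamini-Hochberg adjustment. 95% intervals came from the F statistic and its degrees of freedom. Shares were compared by exact permutation. Both tissues of a mouse come from 1 animal and form a block. Between them, deviations from the group means correlated at -0.152 to 0.192 over 11128 genes. With 2 WT mice the deviations of each mirror those of the other. Both therefore share the value of 0.192, and the correlations by batch are not independent either. The batch label pairs WT and E0del/+ mice (-0.0289 and -0.169 in LV, 0.333 and 0.153 in SkM) and was a block in an alternative. DESeq2 1.42.0, other scaling, filters and leaving out each library were the other alternatives, and Xist expression (over 100 CPM) as a block was chosen after seeing the data.

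The genes and lists were chosen with earlier results of these data known. Named from each list are at most 4 genes, by level or by passing the threshold, with a count for the rest; single values of further marker genes were named after they were seen.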

Additional observations from a re-analysis of the deposited data

Results flagged for a closer look

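Of 14 series of 5 libraries (each light chain gene in LV and in SkM, and the ratio of essential to regulatory chains in each tissue), 3 had a library far from the other 4, with a gap to the nearest of them over 0.71 of the whole range. For a single series with a normal spread chance gives about 1 in 20, and the 14 series are not independent of each other. Myl1 in WT LV replicate 2 was at 1353 CPM, and the other LV libraries lay between 21.0 and 27.6 CPM. Mylpf in the same library was at 570.3 CPM against 2.61 to 3.72 CPM. Mylpf in WT SkM replicate 2 was at 3475 CPM against 2631 to 2777 CPM. All 3 come from WT replicate 2. Its LV library had been set apart before this screen, so the flags of Myl1 and Mylpf in LV restate its content and are no further support. No cause was tested.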

How the results depend on the processing

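Among 347 values recomputed for 30 results, 327 kept their direction and their side of the threshold, 12 reversed, 4 became called and 4 counts of calls moved. Of the 12 reversals 10 came from leaving out WT replicate 2, and the 4 calls from leaving out WT replicate 1.

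With the batch as a replicate block, LV gave 5 calls in place of 0 (Kdm5d, Uty, Ddx3y, Eif2s3y and Mstn). SkM gave 1 in place of 0 (Eif2s3y), and all were lower in E0del/+. Of these 6 calls 5 are Y-linked, and batch 2 sets a Y-bearing WT mouse against an E0del/+ mouse with high Xist. The remaining call, Mstn in LV, is of a gene with a mean of 179 CPM in SkM and 0.598 CPM in LV without WT replicate 2. That fit included WT LV replicate 2, which held skeletal muscle RNA. The block changed no call of a light chain gene; its log2 fold changes in SkM were 1.45 for Myl2 and 1.58 for Myl3, and in LV it moved Myl1 from -4.90 to -2.96 and Mylpf from -6.65 to -4.07. With total counts in place of TMM, Myl4 between tissues was -0.17.

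Leaving out each library or mouse in turn gave 0 to 578 calls in LV and 0 to 155 for the interaction. In LV, log2 fold changes ran from -5.88 to 0.27 for Myl1 and from -7.64 to 0.26 for Mylpf, from 0.80 to 1.47 for Myl4 and from 0.74 to 1.89 for Myl7. In SkM they ran from -0.75 to 0.19 for Myl1, from -0.50 to 0.0764 for Mylpf, from -0.23 to 0.69 for Myl4, from 0.06 to 2.14 for Myl2 and from 0.39 to 2.02 for Myl3. The interaction ran from -0.00292 to 5.08 for Myl1, from -0.10 to 7.09 for Mylpf, from -0.30 to 1.23 for Myl2, from -0.0378 to 1.17 for Myl3 and from -1.90 to 3.64 for Myl7. The difference in share ran from -0.0317 to 1.91 percentage points for Myl2 and from 0.478 to 2.32 for Myl3 in SkM, and from 0.0207 to 0.0559 for Myl7 and from 0.0449 to 0.104 for Myl4 in LV. Where 1 WT library is left, it is assumed to vary like the E0del/+ libraries.

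With Xist as a block, an alternative chosen after seeing the data, 0 genes were called in either tissue, and in LV Myl1 was at -2.60 and Mylpf at -3.75. Without the mouse block the interaction was 4.50 for Myl1 and 6.36 for Mylpf.

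The depth limits Myl7, at 0 to 42 counts per library, and Myl4, at 25 to 99. With 2 WT mice the permutation tests cannot pass 0.05, and WT LV replicate 2 is 1 of the 2 WT LV libraries, so that genotype in LV rests on a single WT library without it.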
